A study of Notophthalmus viridescens with 18 samples.

Results

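A group of 21 transcripts was selected, among the 27395 entries of the newt transcriptome tables, for being higher in A1 myotubes given 10% serum than in myotubes kept in 0.25% serum and also higher in myotubes given medium from senescent cells than in those given medium from proliferating cells. The selection used measured values. Estimated reads were rounded and divided by a size factor per library, which gives normalised reads, and means were taken over the 3 libraries of each group. A member had a mean of at least 100 normalised reads in 10% serum, was at least 2 times higher than in 0.25% serum, was at least 2 times higher in senescent than in proliferating conditioned medium (CM), and had no overlap between the libraries of either pair. Its mean in proliferating mononucleate cells was at most 2 times that in 0.25% serum, a cap meant to leave out transcripts that cycling cells carried over among the myotubes would bring. A transcript that the selection left out by name did not meet this cap. The serum comparison, the CM comparison and the level in proliferating cells are therefore given below as descriptions. Where edgeR or limma calls are counted for these, the calls rest on the values that chose the members and support nothing about them. Only the comparison of senescent with proliferating cells is read as a test. It is not free of the selection, since the cap used its proliferating cell libraries. Its calls are therefore also set beside those of transcripts that met the read floor and the cap. With folds and overlap taken on TPM in place of normalised reads, the selection held 14 transcripts, of which 5 were among the 21.

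All 6 groups of 3 libraries came from wild-type A1 cells, a line derived from limb mesenchyme of the newt Notophthalmus viridescens. Proliferating cells (PRO) were kept in 10% fetal calf serum (FCS), received only the DMSO vehicle and were harvested on day 12. Senescent cells (SEN) received 20 µM etoposide together with 1 µM nutlin for 24 h and then nutlin alone for 11 days in 10% FCS. Differentiation in 0.25% FCS lasted 5 days, and the resulting myotubes were treated for a further 3 days, up to harvest on day 8. The treatments were fresh medium at 0.25% FCS (MT_0.25%) or at 10% FCS (MT_10%) and filtered CM at 0.25% FCS, which had stood for 48 h on proliferating (MT_0.25%_PRO_CM) or senescent (MT_0.25%_SEN_CM) cells. Myotubes were enriched by filters of 100 µm and, per the labels, 30 µm, a step that PRO and SEN cells did not pass through. A lower filter of 35 µm is given in the methods of the study. A filter enriches myotubes without removing every mononucleate cell, and in these bulk libraries fewer cells of a type and less RNA per cell cannot be told apart. Nothing in the labels says that the 3 libraries of a group came from separate cultures, so the p-values below measure the spread between these libraries, which may be technical.

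Newt myotubes, unlike those of mammals, can re-enter the cell cycle, and serum is a classical stimulus for this in A1 myotubes. During limb regeneration muscle fibres give rise to proliferating progenitors. Senescent cells are permanently arrested but remain active in secretion, and their CM carries the secreted factors to cells that were never in contact with them. The selection was built around the question of which transcripts may be shared features of the response to serum and senescent CM. For CM it compared senescent with proliferating CM only. It did not ask for a level with senescent CM above that in fresh medium.

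The libraries held between 20609828 and 62991718 estimated reads, with a median of 43238896. Ckma, a muscle creatine kinase used here as a myotube marker, had 2134 ± 318 normalised reads (SD, n = 3) in MT_0.25% and 39.1 ± 11.9 in PRO, and Ccnb1, a mitotic cyclin, had 67.2 ± 10.8 in SEN and 4794 ± 796 in PRO.

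The group holds a single named transcript, Lmnb1 (comp23366_c0_seq1), which codes for lamin B1. Lamin B1 is a filament protein of the nuclear lamina, the meshwork beneath the inner nuclear membrane, and its loss is a widely used mark of senescence in mammalian cells. The study lists Lmnb1 among its senescence transcripts, and that list was chosen on these samples. The other 20 transcripts carry only assembly identifiers in the sources used here, so no function is given for them. The study's supplementary table of differential expression was read only in part, so a name in the rest of it would have been missed. Each member was the only entry of its assembly component in the tables. The members had a median highest length of 2654 bases, between 323 and 5200 bases, against 1135 bases among the 8474 transcripts that met the read floor and the PRO cap and 930 bases among all 23107 transcripts tested. Among the transcripts that met all conditions except the PRO cap the median highest length was 1118 bases. A read floor favours long transcripts, and this set and the 8474 met the same floor as the members. Length was not part of the selection, and the cause of the difference was not tested. For 10 of the 21 the authors' length estimate was a single value in all libraries, as for 25.0% of all entries. On the TPM scale, which is per length and allows levels to be compared between transcripts, the mean in MT_10% ran from 2.29 TPM (comp780586_c0_seq4) to 45.1 TPM (comp33634_c1_seq1), with a median of 5.57 TPM.

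In the serum comparison, which the selection used, the ratio of MT_10% to MT_0.25% means ran from 2.12 to 6.86 with a median of 3.91. All 21 members were among the 20.0% of all transcripts tested that edgeR calls higher in MT_10%, and nothing is read from this count since the same values chose the members. The member with the highest MT_10% level, comp33634_c1_seq1, had 3786, 5208 and 4274 normalised reads in MT_10% replicates 1 to 3 and 454, 1343 and 737 in MT_0.25%. Its lowest MT_10% library lay well above its highest MT_0.25% library. The largest ratio belonged to comp180912_c0_seq1, with 719, 816 and 784 in MT_10% and 41.8, 179 and 117 in MT_0.25%. A similarly wide gap was seen for comp98653_c0_seq1, with 686, 654 and 717 against 55.8, 167 and 117. The smallest ratio between the nearest single libraries belonged to comp10526_c0_seq1, with 169, 192 and 249 in MT_10% and 45.1, 137 and 96 in MT_0.25%. MT_10% was the highest of the 6 groups for 18 members, and for the other 3 the highest group was SEN.

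**Figure D1:**
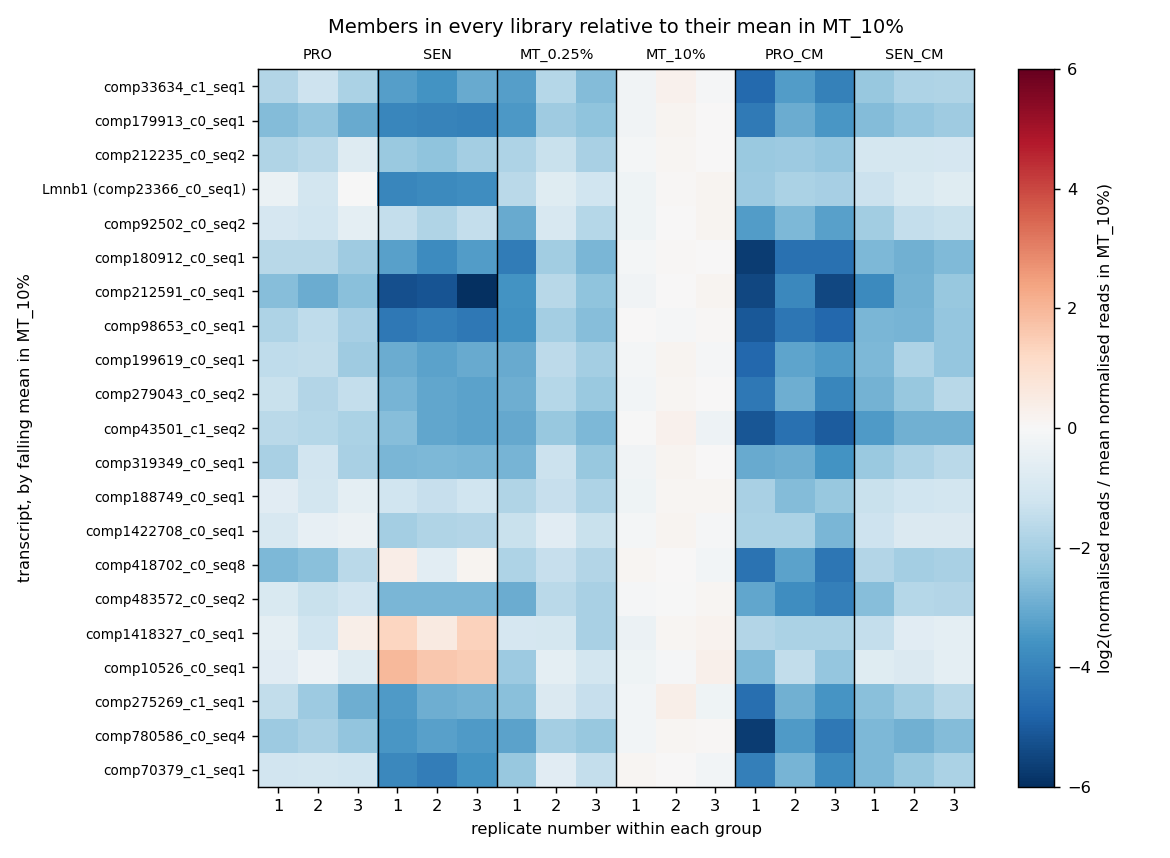
Colour gives log2 of normalised reads in each library (columns, replicates 1 to 3 of each group; PRO_CM and SEN_CM stand for MT_0.25%_PRO_CM and MT_0.25%_SEN_CM) relative to the mean in MT_10%, for each of the 21 members (rows). MT_10% is the highest group in 18 members, MT_0.25%_PRO_CM the lowest in 17, and 3 members are higher in SEN than in any other group.

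In the CM comparison, also used by the selection, the ratio of MT_0.25%_SEN_CM to MT_0.25%_PRO_CM means ran from 2.01 to 4.18 with a median of 2.68. By edgeR 19 of the 21 were called higher with senescent CM, against 3.00% of all transcripts tested, a count that the selection on the same libraries largely sets and from which nothing is read. The members not called were comp1418327_c0_seq1 and comp70379_c1_seq1. The count fell to 12, 11 and 11 when MT_0.25%_SEN_CM replicate 2, MT_0.25%_SEN_CM replicate 3 or MT_0.25%_PRO_CM replicate 1 was left out. Calls over all transcripts tested fell too, from 694 of 23107 to 236 of 23543, 541 of 23635 and 387 of 23608. With limma in TPM the count was 1 at a pseudocount of 1 and 2 at a pseudocount of 0.1. Of all 23107 transcripts tested, limma called 92 and 102 higher at these pseudocounts. The largest ratio belonged to comp98653_c0_seq1, which had 101, 98.1 and 138 normalised reads in MT_0.25%_SEN_CM and 20.4, 33.8 and 26.4 in MT_0.25%_PRO_CM. For comp33634_c1_seq1 the values were 906, 1218 and 1286 with senescent CM and 173, 439 and 263 with proliferating CM. The smallest ratio between the nearest single libraries was in comp279043_c0_seq2, with 77, 114 and 175 against 27.9, 72.8 and 35.9. On the TPM scale comp179913_c0_seq1 did not share this direction, at 3.65 ± 1.25 TPM with senescent CM and 3.98 ± 2.25 TPM with proliferating CM (SD, n = 3). The length the authors' tool gave this transcript varied between libraries from 499 to 1933 bases. Over all members, 20 were higher with senescent CM in TPM and 11 were at least 2 times higher.

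Fresh medium gave a different picture from the one the CM comparison gives alone. None of the 21 members reached 2 times the fresh medium mean with senescent CM, while 9.30% of all transcripts tested did. For the range within 1.5-fold of fresh medium the share of all transcripts was not computed. Members with senescent CM lay within it in 18 of 21 cases, with 13 means above fresh medium and 8 below. In MT_0.25%_PRO_CM, by contrast, the mean was below that in fresh medium for all 21 members. Fresh medium was at least 2 times higher than proliferating CM for 15 of them, against 9.11% of all transcripts tested. Libraries did not overlap for 16 members with proliferating CM below fresh medium, against 19.1% of all transcripts tested, and for 0 members with proliferating CM above it, against 18.3%. With senescent CM above fresh medium they did not overlap for 2 members, comp212235_c0_seq2 and comp188749_c0_seq1, against 26.4%. With senescent CM below it they did not overlap for 0 members, against 28.4%. The median log2 ratio to fresh medium was 0.09 for senescent CM and -1.53 for proliferating CM, where the medians over all transcripts tested were -0.10 and -0.01. For the 43 transcripts that met the CM conditions, the read floor and the PRO cap, the medians were 0.05 and -1.37, near those of the members. For the 386 that met the serum conditions, the floor and the cap they were -0.15 and -0.50. Both sets include the members, and the part of the CM conditions in this arrangement was not tested. A description as raised by senescent medium thus held relative to proliferating CM. Relative to fresh medium no member met it at 2-fold. In TPM, where the median log2 ratio over all transcripts tested was -0.995 for senescent CM and -0.51 for proliferating CM, the members' medians were -0.84 and -1.99 and all 21 members were below fresh medium with either CM. The groups with fresh medium, senescent CM and proliferating CM all entered the selection, so no test was made. Both ratios use the same MT_0.25% libraries.

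Single members showed the same arrangement in different degrees. For comp33634_c1_seq1 MT_0.25% had 454, 1343 and 737 normalised reads, a range that contains all 3 libraries with senescent CM, at 906, 1218 and 1286, while those with proliferating CM, at 173, 439 and 263, lay below it. For comp180912_c0_seq1 fresh medium had 41.8, 179 and 117, senescent CM 117, 104 and 125 and proliferating CM 15, 34.8 and 34.9. Here too the senescent CM libraries lay within the fresh medium range and the proliferating CM libraries below it. The clearest exception was comp212235_c0_seq2, with 416, 586 and 384 in fresh medium, 710.2, 718 and 733 with senescent CM and 314, 325 and 303 with proliferating CM. Its 3 groups were separate, with senescent CM 1.56 times fresh medium, the highest such ratio of the 21, and proliferating CM 0.680 times. This exception held in normalised reads only, since in TPM all 21 members were below fresh medium with senescent CM. In TPM comp212235_c0_seq2 had 15.4 ± 1.13 in fresh medium, 12.6 ± 0.75 with senescent CM and 9.92 ± 1.30 with proliferating CM (SD, n = 3). comp188749_c0_seq1 had 109, 147 and 106 in fresh medium, 149, 166 and 176 with senescent CM and 97.8, 63.3 and 77.2 with proliferating CM. Its highest fresh medium library came just below its lowest senescent CM library. At the other end, comp70379_c1_seq1 had 30.04, 92 and 55.3 in fresh medium, 23, 30.7 and 38.9 with senescent CM and 8.59, 21.1 and 10.6 with proliferating CM. Its mean fell to 0.522 times fresh medium even with senescent CM, although the 2 groups overlapped.

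The remaining members of the 10 highest in MT_10% had, among the 4 myotube groups, the highest mean in MT_10% and the lowest with proliferating CM. comp92502_c0_seq2 had 775, 949.8 and 1047 normalised reads in MT_10%, 113, 468 and 286 in fresh medium, 220.1, 342 and 360.4 with senescent CM and 91.3, 141 and 95.2 with proliferating CM. Its lowest fresh medium library, replicate 1, lay inside the range with proliferating CM. comp212591_c0_seq1 had 646, 759.7 and 847 in MT_10%, 62.2, 240.3 and 141 in fresh medium, 54, 106 and 156 with senescent CM and 17.2, 50.7 and 16.9 with proliferating CM. It had the lowest ratio of proliferating CM to fresh medium among the members, at 0.191. comp199619_c0_seq1 had 553, 676 and 569 in MT_10%, 73, 203 and 148 in fresh medium, 91.8, 169 and 120.1 with senescent CM and 22.6, 66.5 and 56 with proliferating CM. All of its senescent CM libraries lay inside the fresh medium range. comp279043_c0_seq2 had 71.9, 166 and 115 in fresh medium, and its proliferating CM replicate 2, at 72.8, reached just above the lowest of these. Of the members below the 10 highest, comp43501_c1_seq2 had 532, 637 and 435 in MT_10%, 63.3, 111 and 82.6 in fresh medium, 49.95, 71.5 and 73.4 with senescent CM and 15, 24.3 and 16.9 with proliferating CM, and it was among the 4 members whose PRO libraries, at 173, 165 and 142, all lay above fresh medium. comp275269_c1_seq1 had 174, 253 and 163 in MT_10%, 34.3, 109 and 75.6 in fresh medium, 35.1, 47 and 61.2 with senescent CM and 8.59, 26.4 and 16.9 with proliferating CM. Its mean with senescent CM was 0.654 times that in fresh medium.

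**Figure D2:**
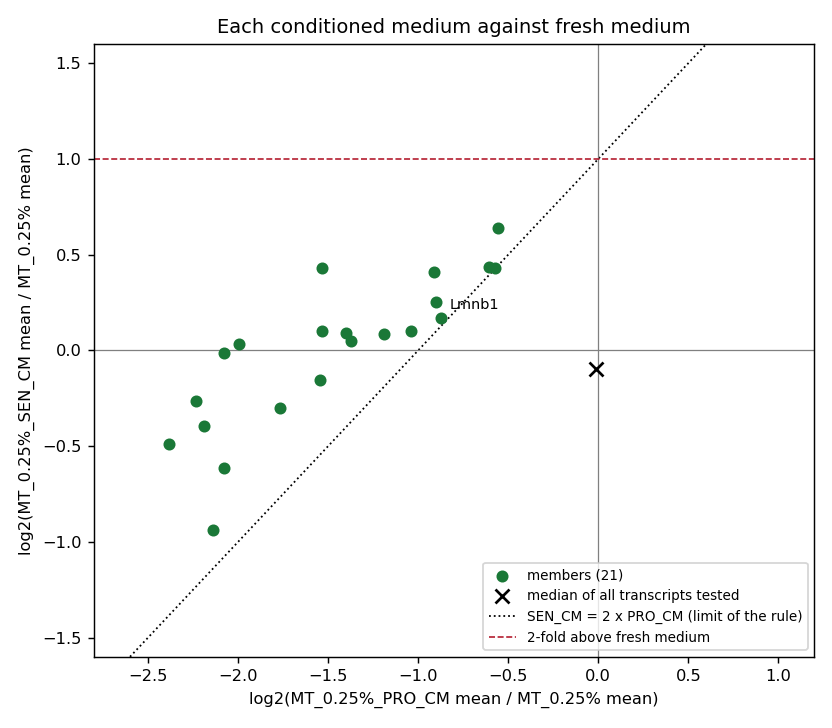
Each point is a member, with log2 of the ratio of the MT_0.25%_PRO_CM mean to the MT_0.25% mean on the horizontal axis and of the MT_0.25%_SEN_CM mean to the MT_0.25% mean on the vertical axis. All 21 points lie left of 0, none reaches the dashed line of 2-fold above fresh medium, and the dotted line is the limit set by the selection.

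Serum gave higher levels than senescent CM in every member. The lowest MT_10% library was above the highest MT_0.25%_SEN_CM library in all 21 members, against 29.1% of all transcripts tested. Both groups entered the selection, which asked for a high MT_10% level, so this count is a description. The median ratio of the means was 1.96 on the log2 scale. The effect of serum against fresh medium was larger than that of senescent against proliferating CM for 17 members, with a median difference of 0.45 on the log2 scale. Over all transcripts tested the median was -0.03. It was 0.92 for the 386 transcripts that met the read floor, the serum conditions and the PRO cap, which include the members. For the 163 that failed only the PRO cap it was 0.70. The difference was greatest for comp179913_c0_seq1, at 1.43, and for comp780586_c0_seq4, at 0.96. comp179913_c0_seq1 had 1654, 2178 and 1942 normalised reads in MT_10%, 176, 434 and 358 in MT_0.25%, 319, 389 and 445 with senescent CM and 103, 247 and 169 with proliferating CM. comp780586_c0_seq4 had 148, 181 and 175, 18.2, 40.4 and 34.9, 25.7, 22.5 and 27.8 and 3.22, 15.8 and 8.46 in the same order. In both only MT_10% stood apart from the fresh medium libraries on the upper side. The difference was lowest for comp418702_c0_seq8, at -0.33, and for comp10526_c0_seq1, at -0.19, which are also the transcripts with the highest SEN to PRO ratios below. comp418702_c0_seq8 had 322, 299 and 268 in MT_10%, 82.6, 113 and 89.1 in MT_0.25%, 89.1, 71.5 and 76.8 with senescent CM and 14, 31.7 and 14.8 with proliferating CM.

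Lmnb1 had 799, 994 and 1079 normalised reads in MT_10% and 311, 584 and 415 in MT_0.25%, a ratio of 2.19 that is near the limit of the selection. With senescent CM it had 394, 504 and 574 and with proliferating CM 213, 261 and 241, a ratio of 2.06. The senescent CM libraries lay inside the fresh medium range and the proliferating CM libraries lay below it. In TPM Lmnb1 had 14.2 ± 3.39 in MT_10% and 7.35 ± 3.01 in MT_0.25% (SD, n = 3). With senescent CM it had 4.64 ± 1.68 TPM and with proliferating CM 2.86 ± 0.56 TPM. Neither pair reached 2 times in TPM, so the selection taken on TPM did not hold Lmnb1. In PRO the normalised reads were 733, 445 and 949, which overlapped with MT_10%, and in SEN they were 64.1, 67.8 and 72.4. The SEN libraries were close to each other and lower than every library of the other 5 groups.

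**Figure D3:**
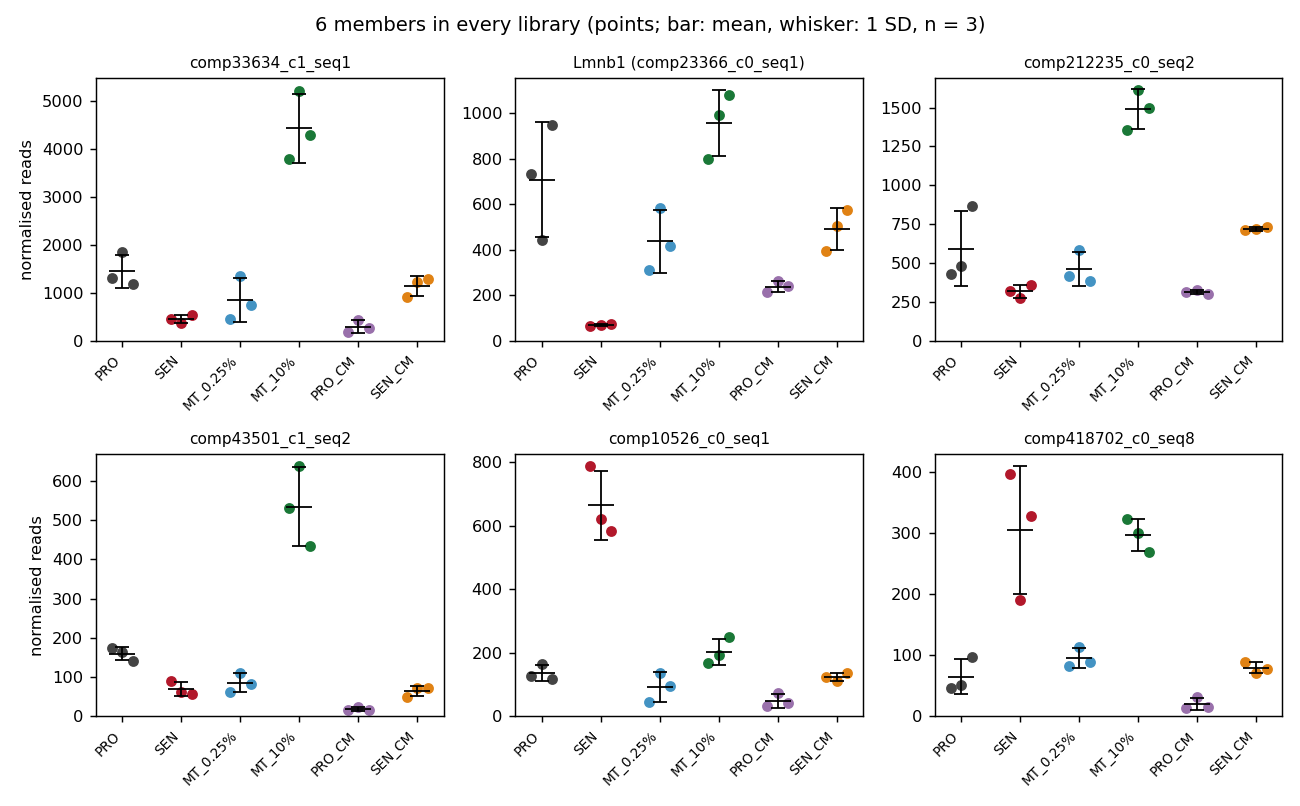
Normalised reads in each of the 18 libraries for 6 members, with points for replicates 1 to 3, a bar for the mean and whiskers of 1 SD (n = 3); PRO_CM and SEN_CM stand for MT_0.25%_PRO_CM and MT_0.25%_SEN_CM. Lmnb1 is lowest in SEN, comp10526_c0_seq1 and comp418702_c0_seq8 are highest there, and in comp212235_c0_seq2 the senescent CM libraries lie above fresh medium. In TPM the senescent CM mean of comp212235_c0_seq2 was below fresh medium.

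The comparison of SEN with PRO asks how the members stand in senescent and proliferating cells. The SEN libraries set no condition of the selection and entered it only through the size factors. The PRO libraries set the cap, so the p-values rest partly on values that chose the members. The sequenced PRO and SEN cells were in 10% FCS, whereas the CM stood on such cells at 0.25% FCS. The levels in cells during conditioning were therefore not measured, and the part of serum in this difference was not tested. By edgeR's quasi-likelihood test 15 of the 21 members were lower in SEN and 3 were higher, at an adjusted p below 0.05. Among all transcripts tested 22.6% were lower and 28.2% higher. The selection capped the PRO level, so transcripts that met the read floor and this cap are a nearer background, and among these 8474 transcripts 15.5% were lower and 42.9% higher. Without overlap between libraries, SEN was below PRO for 17 members and above it for 3, against 27.0% and 27.6% of all transcripts tested and 19.9% and 37.3% of those that met the floor and the cap. Compared with MT_0.25%, SEN was below without overlap for 9 members and above for 3, against 30.9% and 29.1% of all transcripts tested. The median log2 ratio of SEN to PRO was -1.27 for the members and 0.14 over all transcripts tested. The direction depended on scaling. In TPM the median over all transcripts tested was itself 1.43 on the log2 scale, and 7 members were below 0 there while 18 were below that median. By limma on log2(TPM + 1) 1 member was called lower and 5 were called higher, and on log2(TPM + 0.1) 4 were called lower and 5 higher. Of all 23107 transcripts tested, limma called 801 lower and 14317 higher on log2(TPM + 1). On log2(TPM + 0.1) it called 809 of them lower and 15808 higher.

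Lmnb1 showed the lowest ratio. Its edgeR log2 fold change was -3.25 (SE 0.28, adjusted p = 1.57e-08), and it was also lower in TPM, at 1.07 TPM in SEN and 4.45 TPM in PRO. Next came comp212591_c0_seq1, with 126, 96.9 and 133 normalised reads in PRO and 19.3, 20.9 and 11.6 in SEN and a log2 fold change of -2.68 (SE 0.48, edgeR adjusted p = 0.000112). comp70379_c1_seq1 had 65.9, 68.4 and 64.2 in PRO and 10.04, 8.34 and 12.3 in SEN, with a log2 fold change of -2.54 (SE 0.39, edgeR adjusted p = 2e-05). comp98653_c0_seq1 had 192, 241 and 171 in PRO and 35.5, 39.6 and 35.5 in SEN, with a log2 fold change of -2.32 (SE 0.30, edgeR adjusted p = 2.85e-06). In all of these the groups were separate. The other 11 members called lower had log2 fold changes from -1.56 (comp33634_c1_seq1) to -0.76 (comp212235_c0_seq2). By limma in TPM the call for comp212235_c0_seq2 turned to higher in SEN, at 0.56 (adjusted p = 0.0157) with a pseudocount of 1 and 0.68 (adjusted p = 0.00964) with a pseudocount of 0.1. In edgeR it was lost without PRO replicate 3 (edgeR adjusted p = 0.103) and that for comp319349_c0_seq1 without PRO replicate 2 (adjusted p = 0.115). The members not called were comp92502_c0_seq2, comp188749_c0_seq1 and comp275269_c1_seq1, with log2 fold changes of -0.51, -0.36 and -0.85 and edgeR adjusted p of 0.204, 0.165 and 0.109. Of these, comp188749_c0_seq1 was called higher in SEN by limma in TPM, at 0.63 (adjusted p = 0.00947) and 0.97 (adjusted p = 0.00669) with pseudocounts of 1 and 0.1. By DESeq2 it was called lower, at -0.48 (adjusted p = 0.0485). Without PRO replicate 3 edgeR called comp275269_c1_seq1 lower, at -1.16 (adjusted p = 0.0420).

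The 3 members that were higher in SEN were higher by TPM as well. comp10526_c0_seq1 had 126, 165 and 118 normalised reads in PRO and 787, 622 and 584 in SEN, a log2 fold change of 2.41 (SE 0.32, edgeR adjusted p = 3.11e-06). comp418702_c0_seq8 had 45.7, 51.3 and 97.8 in PRO and 396, 191 and 327 in SEN, a log2 fold change of 2.36 (SE 0.31, edgeR adjusted p = 3.16e-06). comp1418327_c0_seq1 had 144, 93.1 and 275 in PRO and 529, 315 and 561 in SEN, a log2 fold change of 1.58 (SE 0.33, edgeR adjusted p = 0.000507). The lowest SEN library was above the highest PRO library in each. In comp418702_c0_seq8 the SEN and MT_10% ranges overlapped, at 396, 191 and 327 in SEN and 322, 299 and 268 in MT_10%, whereas SEN stood above MT_10% in the other two.

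**Figure D4:**
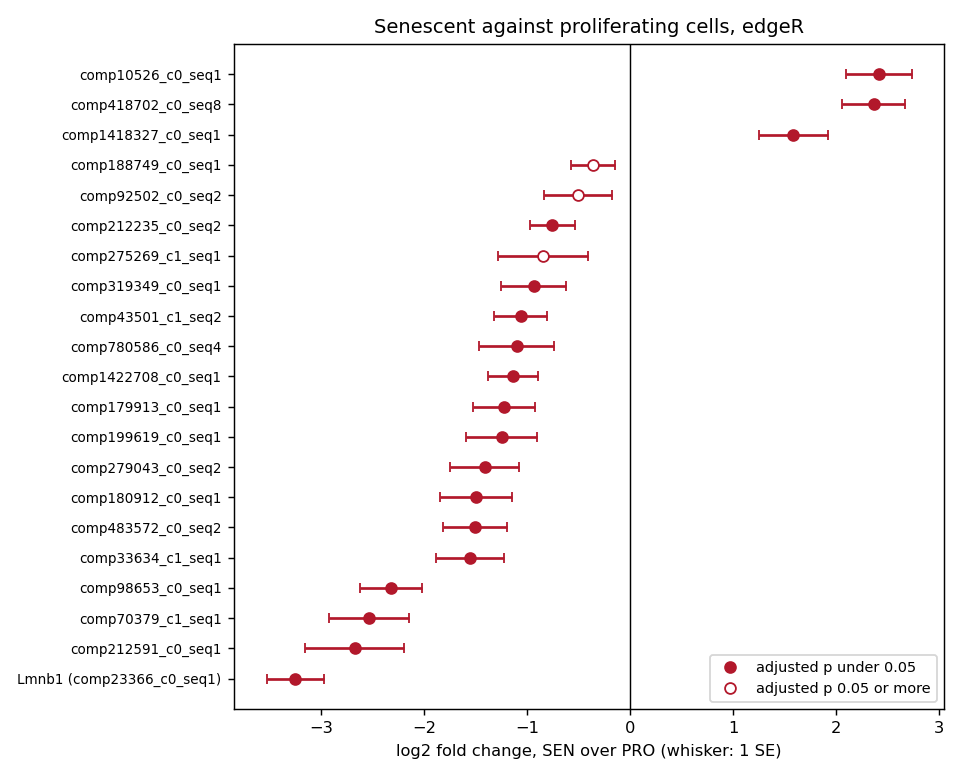
Log2 fold change of SEN over PRO from edgeR for each of the 21 members, with whiskers of 1 SE and filled points where the adjusted p is below 0.05. Of the members, 15 were called lower in SEN, 3 higher, and 3 open points were not called.

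The selection limits of at least 2 times fresh medium for MT_10% and at most 2 times for PRO mean that the MT_10% mean of a member could not be below its PRO mean. MT_10% was above PRO without overlap for 19 members, against 27.8% of all transcripts tested, and the median ratio was 1.62 on the log2 scale, values that the selection favoured and that are given as a description. The exceptions to separation were Lmnb1 and comp1418327_c0_seq1. The PRO mean was above the fresh medium mean in 17 members, and libraries did not overlap for 4 of them, against 32.5%. comp212591_c0_seq1 is an example of MT_10% above PRO, with 646, 759.7 and 847 in MT_10% and 126, 96.9 and 133 in PRO. comp179913_c0_seq1 is another, with 1654, 2178 and 1942 in MT_10% and 317, 369 and 235 in PRO. The PRO means of these examples were not above fresh medium, at 0.804 and 0.951 times it.

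A further 163 transcripts met every condition except the PRO cap. Their median log2 ratio of senescent CM to fresh medium was 0.48 and of proliferating CM to fresh medium -0.97, beside 0.09 and -1.53 for the members. Against PRO their MT_10% level had a median log2 ratio of -0.98, where the members had 1.62, a difference that the cap itself brings. In SEN 81.0% of them were called lower than PRO by edgeR and 7.98% higher. Of the 386 transcripts that met the read floor, the serum conditions and the PRO cap, with or without the CM conditions, 22.8% were called lower in SEN and 39.4% higher, and the members are among them. These shares are given side by side, and no test of the difference was made.

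The libraries of a group were not equal in these transcripts. MT_0.25% replicate 2 was the highest of its group in 20 of 21 members, against 24.9% of all transcripts tested, and replicate 1 was the lowest in 17, against 41.1%. Both held together for 17 members, against 16.6%. MT_0.25%_SEN_CM replicate 1 was the lowest of its group in 16, against 34.5%, and MT_0.25%_PRO_CM replicate 2 the highest in 16, against 43.0%. As a median over the members, MT_0.25% replicates 1 to 3 held 13.1%, 38.1% and 25.7% of the MT_10% mean. With senescent CM the 3 libraries held 17.8%, 27.5% and 29.7%, within the fresh medium range, and with proliferating CM they held 5.36%, 12.9% and 8.37%, each below the lowest fresh medium library. The coefficient of variation of the members within MT_0.25% had a median of 42.7%, against 18.8% over all transcripts tested, and within MT_10% it had a median of 13.4%, against 16.8%. Within MT_0.25%_PRO_CM the median was 40.5%, against 21.4%, and within MT_0.25%_SEN_CM it was 19.7%, against 17.9%. Without MT_0.25% replicate 2, senescent CM was above fresh medium without overlap for 6 members. With a library fewer, any transcript meets this more easily. The share of all transcripts was not computed for this setting, so nothing is read from the count. Under the same selection 62 transcripts would enter without MT_0.25%_PRO_CM replicate 2, 46 without MT_0.25%_SEN_CM replicate 1 and 14 without MT_0.25% replicate 2.

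Transcripts of the cell cycle moved across the same libraries. They were followed by a list for proliferation that the study chose on these samples. The 17 transcripts had medians of 8.22%, 20.7% and 15.2% of their PRO mean in MT_0.25% replicates 1 to 3. They stood at 66.6%, 61.1% and 57.0% in MT_10%. With senescent CM they stood at 18.2%, 23.0% and 22.3% and with proliferating CM at 8.25%, 10.1% and 6.70%. The order of the MT_0.25% libraries was the same as for the members. The senescent CM range overlapped with that of fresh medium, and so did the proliferating CM range, which differs from the members. As a stand-in for mononucleate cells left among the myotubes, 12 transcripts at least 50 times higher in PRO than in MT_0.25% were followed. Their medians were 0.604%, 1.31% and 0.930% of the PRO mean in MT_0.25%, 5.54%, 7.33% and 5.88% in MT_10%, 1.24%, 2.06% and 1.77% with senescent CM and 0.773%, 1.07% and 0.561% with proliferating CM. None of the 12 was at 0 in any group mean. Summed over the 12, the libraries ran from 0.415% to 1.19% in MT_0.25%, from 7.53% to 12.0% in MT_10%, from 1.09% to 1.62% with senescent CM and from 0.392% to 0.620% with proliferating CM. The 12 were chosen as low in MT_0.25%, so their level there says nothing about carry-over. PRO and MT_10% shared 10% FCS, so serum and mononucleate cells cannot be told apart in this list. A list of 3 transcripts at least 20 times higher in SEN than in PRO and MT_0.25% was also followed. Its mean median was 0.783% of the SEN mean with senescent CM, 1.84% with proliferating CM, 2.14% in MT_0.25% and 4.72% in MT_10%. Myotubes received filtered CM and no senescent cells, so these values do not measure carry-over of such cells. A list of 21 transcripts for differentiation, also chosen by the study on these samples, holds Myf5, Myog, Ckma and myosins. The study describes Myf5 as lowered upon differentiation, and in PRO the listed transcripts ran from 0% to 262% of their MT_0.25% level. The list had mean medians of 55.4% of the MT_0.25% level in MT_10%, 51.0% with senescent CM and 76.0% with proliferating CM. Summed over the list the direction in MT_10% was the opposite, with libraries from 118% to 132%, while those with senescent CM ran from 65.7% to 71.4% and those with proliferating CM from 66.7% to 78.8%. Single transcripts of the list differed in direction. Ckma had 2134 ± 318 normalised reads in MT_0.25% and 3992 ± 209 in MT_10% (SD, n = 3). Myh3.1 had 8482 ± 1596 in MT_0.25% and 5826 ± 1695 in MT_10%, and Myog had 14852 ± 3656 and 16270 ± 1289. The part of these values in the members' levels was not tested.

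**Figure D5:**
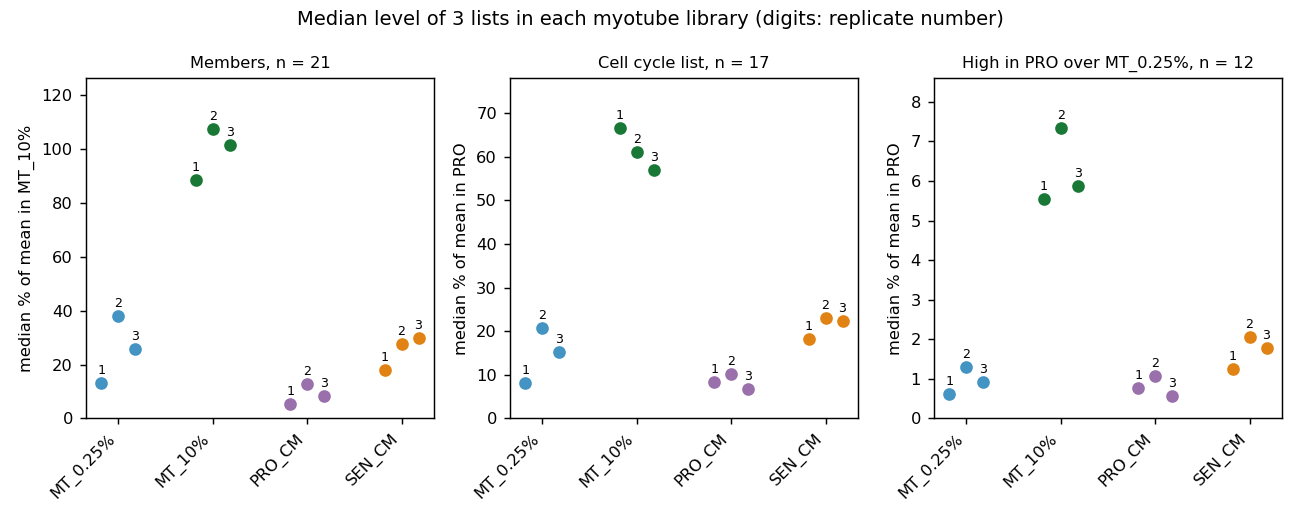
Median level in each myotube library (digits give the replicate number) of the 21 members as a percentage of their MT_10% mean, and of the 17 cell cycle transcripts and the 12 transcripts high in PRO over MT_0.25% as a percentage of their PRO mean; PRO_CM and SEN_CM stand for MT_0.25%_PRO_CM and MT_0.25%_SEN_CM. Members with senescent CM lie at 17.8% to 29.7%, within the fresh medium range of 13.1% to 38.1%, and with proliferating CM at 5.36% to 12.9%, below it.

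At the edges of the selection, members and non-members had similar values. Nearest inside the CM fold was comp1418327_c0_seq1, at 2.01 times, and nearest outside was comp40700_c1_seq3, at 1.99 times. Nearest inside the PRO cap was comp180912_c0_seq1, at 1.96 times MT_0.25%, and nearest outside comp428030_c0_seq2, at 2.01 times. These pairs stood almost on the limit, and 90 transcripts failed only the CM fold. The serum fold was less crowded, with comp1422708_c0_seq1 at 2.12 times inside and comp2601961_c0_seq1 at 1.74 times outside. At the read floor comp70379_c1_seq1 had a mean of 147 normalised reads in MT_10% and comp598268_c0_seq1 had 95.8. For overlap in the serum pair, comp10526_c0_seq1 had its lowest MT_10% library at 169 and its highest MT_0.25% library at 137, and comp348977_c0_seq2 had 83.6 and 93.2. For overlap in the CM pair, comp279043_c0_seq2 had its lowest senescent CM library at 77.0 and its highest proliferating CM library at 72.8, and comp440833_c0_seq2 had 468 and 474.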

How the data were processed

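The 18 RNA libraries were assigned to their 6 groups of 3 from the sample titles. Per the methods of the study, the authors trimmed adapters with TrimGalore, checked quality with FastQC and assigned reads to a de novo N. viridescens transcriptome with Sailfish on the Galaxy server. For these programs no version is given in the sources used here. Per transcript, the deposited tables hold an estimated count of reads, a TPM value and a length. Between 59.0% and 74.8% of the entries of a library had an estimated count that was not whole, and counts were rounded. Per the labels, RNA of PRO and SEN was purified with a mini kit and that of myotubes with a micro kit, so kit and cell state cannot be told apart between them. Reads shared by similar transcripts are divided by the authors' tool, so the count of a transcript with close copies is uncertain.

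Levels were divided by median-ratio size factors over the 21144 entries above 0 in all libraries. Comparisons were fitted over all 18 libraries with edgeR 4.0.16 (R 4.3.3; TMM scaling, filterByExpr, quasi-likelihood, 1 mean per group), with Benjamini-Hochberg adjustment over 23107 transcripts at 0.05, and checked with DESeq2 1.42.0 and limma 3.58.1. The fit was tested on simulated data. Figures used matplotlib 3.10.9. Members and lists were chosen with earlier results of these data known. Names came from the supplementary tables of the study, whose 124 rows of expression were matched to transcripts through their 18 values, giving 123 transcripts. A further table, of differential expression, was read only in part, which gave 3592 identifiers and held no member. Transcripts were named by a rule: members with a name, the 10 highest in MT_10%, the extremes of the SEN to PRO change and of the serum minus CM difference, and those nearest each limit. Members named beyond it (comp43501_c1_seq2, comp319349_c0_seq1, comp188749_c0_seq1, comp275269_c1_seq1) were chosen after their values were seen. Grouping members by role was not applied, since only 1 has a name.

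Deviations from the group means correlated between SEN and PRO at 0.38, 0.37 and 0.43 for the same replicate numbers, and at -0.27 to -0.03 for different numbers. The same numbers gave 0.17, -0.07 and 0.38 for the serum libraries and 0.31, 0.12 and -0.38 for the CM libraries. Deviations cancel out within a group, so these correlations are linked, and they do not settle whether libraries were paired. No pair of libraries was identical. Alternatives were another scaling, tool, unit, filter or limit and leaving out each library. Those for the called members of the serum and CM comparisons and for the counts without overlap against fresh medium were added after seeing the data.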

Additional observations from a re-analysis of the deposited data

How the results depend on the processing

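The number of members depended on the limits of the selection: 7 transcripts met a fold of 3, 106 a fold of 1.5, 4 a PRO cap of 1 and 184 no cap, 14 met the conditions in TPM with 5 of them among the 21, and leaving out a library in turn gave 14 to 62. Called members in the CM comparison numbered 1 on log2(TPM + 1) and 2 on log2(TPM + 0.1) by limma, and 11 to 20 without single libraries. Over all transcripts tested the counts were 92 and 102 by limma and 236 to 541 without single libraries, against 694 by edgeR with all libraries. For SEN against PRO limma called 1 and 4 members lower and 5 and 5 higher at these pseudocounts. Over all 23107 transcripts tested it called 801 and 809 lower and 14317 and 15808 higher. Without single libraries edgeR called 14 to 15 members lower and 3 to 3 higher. Over all transcripts tested these fits called 4653 to 4917 lower and 5539 to 6242 higher. With all libraries edgeR called 5229 lower and 6526 higher. The median log2 ratio of MT_0.25%_SEN_CM to MT_0.25% was -0.84 in TPM and -0.21 to 0.40 without single libraries. The number of members above fresh medium with senescent CM without overlap was 1 with TMM scaling, 0 in TPM and 2 to 6 without single libraries. For this number without overlap, shares over all transcripts were not computed for these settings. Proliferating CM kept a median below fresh medium, from -1.85 to -1.04 without single libraries.

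The SEN to PRO direction of 11 members turned upward by limma in TPM. The log2 fold changes at pseudocounts of 1 and 0.1 were 0.40 and 0.62 for comp179913_c0_seq1, 0.56 and 0.68 for comp212235_c0_seq2, 0.53 and 0.64 for comp92502_c0_seq2, 0.0282 and 0.0714 for comp199619_c0_seq1, 0.16 and 0.24 for comp279043_c0_seq2, 0.0449 and 0.0976 for comp43501_c1_seq2, 0.13 and 0.27 for comp319349_c0_seq1, 0.63 and 0.97 for comp188749_c0_seq1, 0.0509 and 0.0641 for comp1422708_c0_seq1, 0.0873 and 0.33 for comp275269_c1_seq1, and 0.0210 and 0.0843 for comp780586_c0_seq4. The median log2 ratio of mean TPM over all transcripts tested was 1.43, and the cause of the turned directions was not tested. Over all settings 238 of the members' SEN to PRO values kept direction and call, 22 turned, 11 lost the call and 2 gained it. With the replicate number as a block, SEN against PRO had 15 members called lower and 3 higher, with each member's call unchanged. The serum and CM comparisons had 21 and 19 called, the same counts as without the block. Over all 23107 transcripts tested, the block fit called 5137 lower and 6463 higher in SEN. It called 4513 higher with serum and 620 higher with senescent CM.

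At these depths the lowest members rest on few reads, such as 3 to 16 normalised reads for comp780586_c0_seq4 with proliferating CM, and a small difference there would not be detectable.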
